A study of Mus musculus with 12 samples.

Results

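Amino acid transporter genes were defined by name, as the genes of the solute carrier families Slc7, Slc38, Slc36 and Slc43 and the genes Slc3a1 and Slc3a2 in the array's annotation. The rule found 35 of the 18193 genes measured. They comprised 15 transporter genes of Slc7, 9 of Slc38, 4 of Slc36, 3 of Slc43 and both Slc3 genes, 33 in all, and 2 further genes that carry a family symbol without being transporters. The 2 were Slc7a6os, a protein-coding neighbour of Slc7a6, and Slc36a1os, a long non-coding RNA gene beside Slc36a1. Slc38a8 and Slc38a11 were not analysed here.

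The arrays measured mRNA in the neural tube, from which the central nervous system forms. Embryos of ICR (CD-1) mice were sampled on gestation days (GD) 8.5, 9.0 or 9.5, and the day of the vaginal plug was day 0. ICR is an outbred stock, and no stage received a treatment. Each stage had 4 labelled biological replicates. The labels name no litters or pools, so p-values measure the spread between these samples, which may be technical. The values of GD8.5 replicates 1 and 2 were deposited on a linear scale, so the comparisons used the other 10 arrays, 2 from GD8.5 and 4 from each later stage.

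Cells take up amino acids through carriers with overlapping substrates. Cationic transporters of the Slc7 family carry arginine and lysine without a partner, whereas the light chains of the same family exchange amino acids across the membrane and reach it only when bound to a heavy chain, Slc3a2 or Slc3a1. Slc38 proteins couple small neutral amino acids and glutamine to sodium, Slc36 proteins are mostly coupled to protons, and Slc43a1 and Slc43a2 let neutral amino acids pass down their gradients. In growing embryonic tissue these carriers supply protein synthesis, and the kinase complex mTORC1 senses the amino acids they bring in.

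Levels are given on the log2 scale. A level of 1.42, under which 95% of 39 olfactory receptor genes lay, served as the background, and 29 of the 35 genes exceeded it in at least 1 stage mean. A total of 23 exceeded it at every stage. The remaining 6 of the 35 lay at or under it at all 3 stages, so no change can be read for them. These were Slc3a1, the heavy chain partner of Slc7a9, Slc7a11, the cystine and glutamate exchanger, Slc7a12, Slc7a14, Slc7a15 and Slc36a1os. Probe sets differ in brightness for the same amount of RNA, so levels are compared between stages and never between genes.

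Markers of neural and of other tissues were read first. All 26 measured genes of a 27-gene neural progenitor list exceeded the background at some stage, and the mean level of the list was 5.14, 5.72 and 6.37 at GD8.5, GD9.0 and GD9.5. Lists of other tissues moved as well. The endoderm and yolk sac list (26 of 28 genes measured) ranged between arrays from 5.43 to 5.44 at GD8.5, from 3.45 to 3.50 at GD9.0 and from 2.44 to 2.485 at GD9.5, with 1, 3 and 6 genes at or under the background. The cardiac muscle list (22 of 22 genes) ranged from 4.61 to 4.68, from 2.61 to 2.65 and from 1.535 to 1.65, with 0, 1 and 10 genes at or under it. The primitive erythroid list (19 of 22) averaged 3.79, 4.32 and 4.78. In such bulk samples, fewer cells of a type and less RNA per cell cannot be told apart.

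Of the 35 genes, 6 changed between GD8.5 and GD9.0, when 13.5% of all genes were called, 12 changed between GD9.0 and GD9.5, against 24.3% of all genes, and 14 changed over the full day, against 28.6%. In percent these were 17.1, 34.3 and 40.0 of the 35. By direction, 2 rose and 4 fell in the first interval (6.78% and 6.74% of all genes), 7 rose and 5 fell in the second (14.1% and 10.3%), and 7 rose and 7 fell over the day (15.5% and 13.1%). Their median log2 change was -0.02, -0.06 and -0.05, beside medians of -0.002, -0.008 and -0.016 over all genes. Single members thus moved in both directions around a median near 0. The second-interval count was 7 without GD9.0 replicate 2 and 6 with all 12 arrays, and the full-day count was 9 without GD8.5 replicate 3 and likewise without replicate 4. The change itself differed between the intervals for 5 of the 35 genes, 4 with a more positive second interval and 1 with a less positive one (6.97% and 4.67% of all genes), or 2 with all 12 arrays. Where arrays of a pair of stages are said below not to overlap, the share of all genes with later arrays all higher was 17.6% in the first interval, 15.1% in the second and 23.2% over the day, and with later arrays all lower 16.9%, 11.9% and 22.7%.

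**Figure D1:**
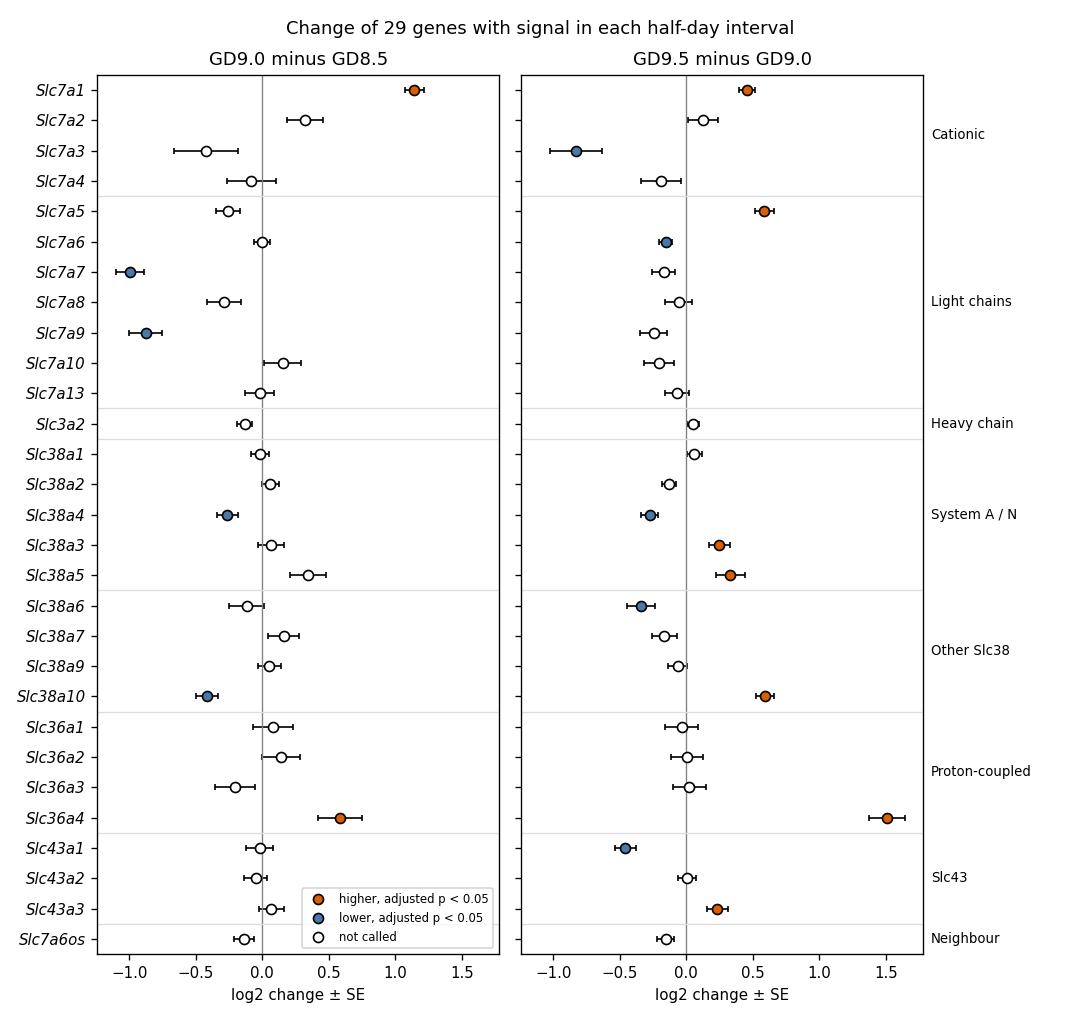
Log2 change ± SE of the 29 genes above background in at least 1 stage, from GD8.5 to GD9.0 on the left and from GD9.0 to GD9.5 on the right, grouped by role. Filled points passed an adjusted p under 0.05 (orange higher, blue lower). Slc7a1 leads the first interval at 1.14 and Slc36a4 the second at 1.51, with 6 filled points on the left and 12 on the right.

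Among the cationic transporters, Slc7a1 rose and Slc7a3 fell. Slc7a1, also called CAT-1, is the widely expressed arginine and lysine carrier. Its level was 4.91 and 4.70 at GD8.5, 5.89, 5.92, 6.01 and 5.95 at GD9.0, and 6.45, 6.41, 6.41 and 6.34 at GD9.5. No array of 1 stage overlapped another stage. At GD9.0 it was 2.21-fold higher than at GD8.5 (log2 change 1.14 ± 0.07, adjusted p = 1.01e-06), and at GD9.5 it was 1.37-fold higher than at GD9.0 (0.46 ± 0.06, adjusted p = 0.000187) and 3.03-fold higher than at GD8.5 (1.60 ± 0.07, adjusted p = 2.23e-08). The rise of the second interval was smaller than that of the first (difference -0.68 ± 0.11, adjusted p = 0.00237), against 11.6% of all genes called for that difference. A second probe set of Slc7a1 rose in both intervals as well (0.58 and 0.39), while the third lay at 1.22 at each stage, under the background. With the mean of all 3 probe sets the difference between intervals was -0.30 and not called, and with all 12 arrays neither that difference (adjusted p = 0.0761) nor the second interval (adjusted p = 0.0732) was called.

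Slc7a3, or CAT-3, is a carrier of the same substrates described mainly in brain. Its level was 4.34 and 4.29 at GD8.5, 3.48, 4.07, 3.95 and 4.07 at GD9.0, and 3.18, 2.54, 3.57 and 2.98 at GD9.5. The arrays of GD9.5 lay below those of GD8.5 and overlapped those of GD9.0 by 1 array on each side. It was 2.38-fold lower at GD9.5 than at GD8.5 (-1.25 ± 0.24, adjusted p = 0.00227) and 1.77-fold lower than at GD9.0 (-0.83 ± 0.20, adjusted p = 0.00983), and the first interval did not pass (-0.42 ± 0.24, adjusted p = 0.317). Its spread between arrays of GD9.5 was 0.43 (SD, n = 4), against 0.05 for Slc7a1. Both falls were called under every alternative run.

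Of the other cationic members, Slc7a2, or CAT-2, was at 1.31 at GD8.5, under the background, and its brightest probe set was at least 1.26-fold higher at GD9.5 (0.44 ± 0.14, adjusted p = 0.0312). Another of its 4 probe sets, under the background at every stage, was called lower (-0.35), so the direction for Slc7a2 is uncertain, and its call was lost when any 1 of 5 arrays was left out (GD8.5 replicates 3 and 4 and GD9.5 replicates 1, 2 and 4). Slc7a4, a relative without shown transport of its own, was at 2.63, 2.54 and 2.35 at the 3 stages and did not pass in any comparison.

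Among the 10 light chains were the largest full-day falls after that of Slc7a3. Slc7a7, or y+LAT1, exports cationic amino acids in exchange for neutral ones and is mutated in human lysinuric protein intolerance. Its level was 3.01 and 2.64 at GD8.5, 1.73, 1.92, 1.81 and 1.87 at GD9.0, and 1.50, 1.73, 1.71 and 1.72 at GD9.5. Both log2 arrays of GD8.5 lay above all later arrays. With all 12 arrays normalized together, GD8.5 replicate 2 (2.66) lay within the range of GD9.0 (2.52 to 2.70). In the first interval it fell 2.00-fold (-0.997 ± 0.105, adjusted p = 7.7e-05), it did not pass in the second interval (-0.17 ± 0.09, adjusted p = 0.195), and the intervals differed (0.83 ± 0.16, adjusted p = 0.00726), a call lost with all 12 arrays (adjusted p = 0.377). Its dimmer probe set changed by -0.20 in the first interval and was not called.

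Slc7a9, or b0,+AT, takes up cystine and cationic amino acids in kidney and gut and needs the heavy chain Slc3a1, one of the genes at background. Its level was 2.45 and 2.03 at GD8.5, 1.29, 1.41, 1.41 and 1.35 at GD9.0, and 0.95, 1.16, 1.35 and 1.03 at GD9.5. All 8 later arrays were at or under the background, so both later stages were at least 1.76-fold lower than GD8.5 (adjusted p = 0.00069 and 4.34e-05 for fitted changes of -0.88 ± 0.13 and -1.12 ± 0.13). Its second step cannot be read, and the difference between its intervals was not called (adjusted p = 0.0563). In the first interval, when Slc7a7 and Slc7a9 fell, 23 of 26 genes of the endoderm and yolk sac list fell as well. So did 18 of 22 of the cardiac muscle list, beside 6.74% of all genes. The decidua and placenta list (8 of 11 measured) averaged 3.44, 2.35 and 2.23 at the 3 stages, the surface ectoderm list (14 of 14) 4.19, 3.71 and 3.28, and the endothelial list (20 of 20) 3.42, 3.26 and 3.10. In the first interval 5, 8 and 6 of their genes fell and 1, 1 and 2 rose, when 6.74% of all genes fell and 6.78% rose. The part of these tissues in the falls of both genes was not tested.

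**Figure D2:**
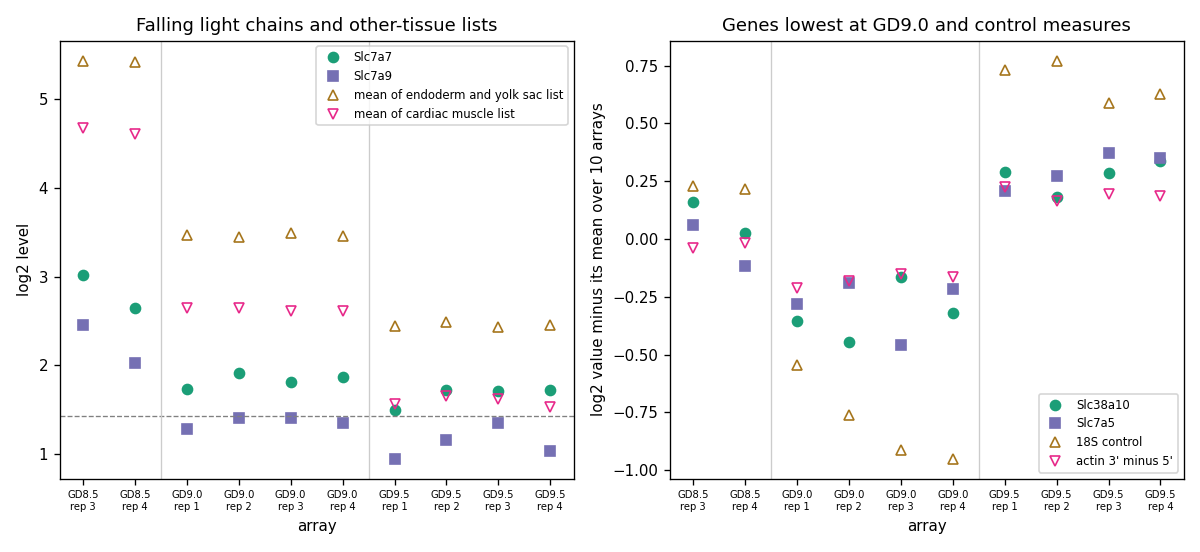
Values on each of the 10 log2 arrays. Left, levels of Slc7a7 and Slc7a9 (filled) with the mean level of the endoderm and yolk sac list and of the cardiac muscle list (open), and the background of 1.42 (dashed). All 4 are highest on both GD8.5 arrays. Right, Slc38a10 and Slc7a5 (filled) with the 18S ribosomal RNA control and the actin 3' minus 5' difference (open), each minus its mean over the 10 arrays. All 4 are lowest at GD9.0 and highest at GD9.5.

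Slc7a5, or LAT1, imports leucine and other large neutral amino acids bound to Slc3a2. Its level was 4.75 and 4.57 at GD8.5, 4.40, 4.50, 4.23 and 4.47 at GD9.0, and 4.89, 4.96, 5.06 and 5.04 at GD9.5. Of the 10 log2 arrays, the 4 of GD9.0 were the lowest and the 4 of GD9.5 the highest. With all 12 arrays normalized together the GD8.5 arrays (4.87 to 5.48) spanned the range of GD9.0 (4.95 to 5.26), and the first-interval change was -0.05. At GD9.5 it was 1.50-fold higher than at GD9.0 (0.59 ± 0.07, adjusted p = 0.000148) and 1.26-fold higher than at GD8.5 (0.33 ± 0.09, adjusted p = 0.0163), and the first interval did not pass (-0.26 ± 0.09, adjusted p = 0.0873). The full-day call was lost without GD8.5 replicate 4 (adjusted p = 0.182) and with a replicate block (adjusted p = 0.0599). The intervals differed by 0.84 ± 0.14 (adjusted p = 0.00248), which was not called with all 12 arrays (adjusted p = 0.165).

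The partner of Slc7a5, the heavy chain Slc3a2 also known as CD98, did not pass in any comparison. It was at 6.45 and 6.38 at GD8.5, 6.24, 6.31, 6.28 and 6.29 at GD9.0, and 6.33, 6.29, 6.37 and 6.34 at GD9.5. Its changes were -0.13 ± 0.06, 0.05 ± 0.05 and -0.08 ± 0.06 for the first interval, the second and the full day, with adjusted p of 0.167, 0.475 and 0.347. The difference between its change and that of Slc7a5 was not tested.

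Of the other light chains, Slc7a6, or y+LAT2, fell in the second interval (-0.15 ± 0.05, adjusted p = 0.0437), a call lost when any 1 of 9 arrays, all but GD9.0 replicate 1, was left out. The neighbouring Slc7a6os, at 3.78, 3.65 and 3.49, fell over the full day (-0.29 ± 0.08, adjusted p = 0.0154) and lost the call without either GD8.5 array. Slc7a8, or LAT2, lay above background at GD8.5 alone (1.55), and Slc7a10, the carrier of small neutral amino acids called Asc-1, at GD9.0 alone (1.56). Slc7a13, a light chain of kidney, was at 1.58, 1.56 and 1.49. None of these 3 passed in any comparison, with adjusted p from 0.0669 upwards.

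**Figure D3:**
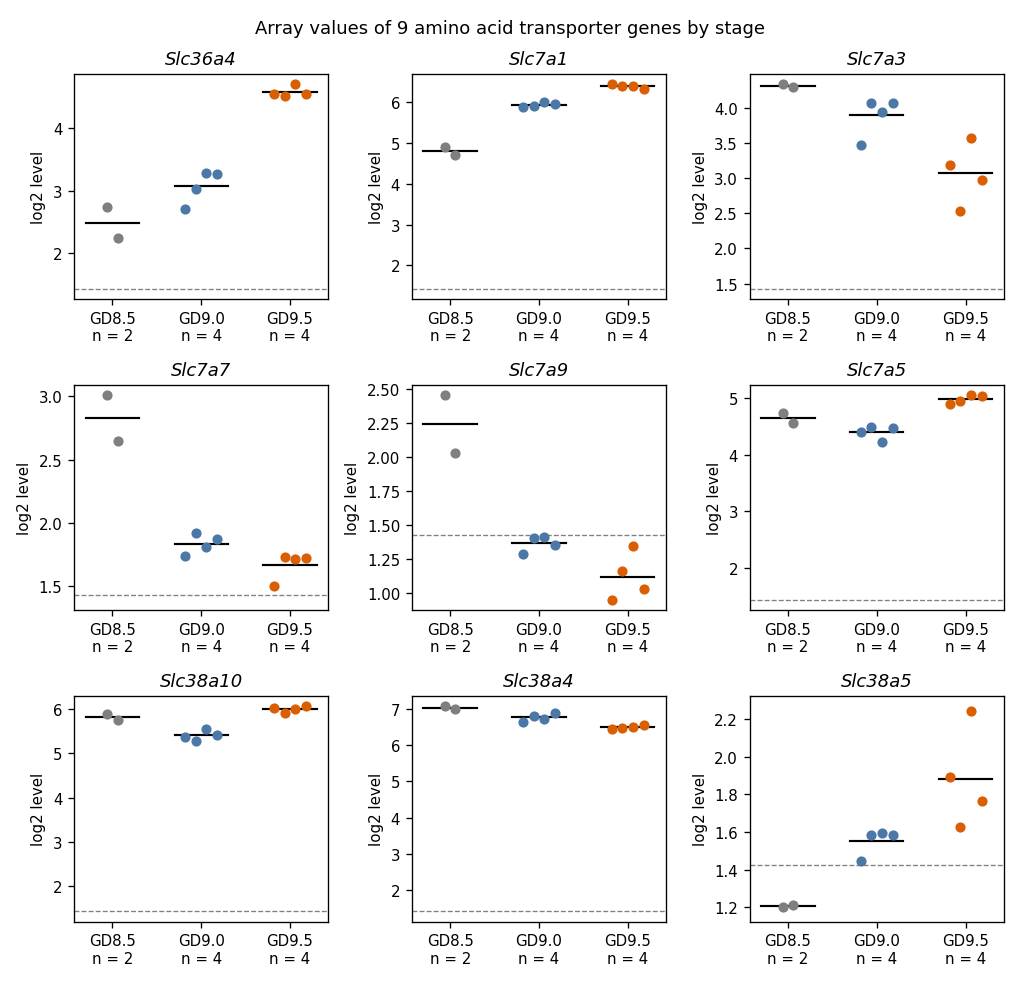
Log2 level on each array (points) and stage mean (bar) for the 9 genes with a called change of at least 0.5, at GD8.5 (n = 2), GD9.0 (n = 4) and GD9.5 (n = 4), with the background of 1.42 dashed. The means of Slc36a4 and Slc7a1 climb at each stage, though arrays of GD8.5 and GD9.0 overlap for Slc36a4. Slc7a3 and Slc38a4 descend, Slc7a7 and Slc7a9 drop after GD8.5, and Slc7a5 and Slc38a10 are lowest at GD9.0. Vertical scales differ between panels.

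Among the sodium-coupled carriers of systems A and N, Slc38a1 and Slc38a2 did not pass in any comparison by their brightest probe sets. Slc38a1, a glutamine and alanine carrier (SNAT1), was at 7.99, 7.97 and 8.04, and Slc38a2, its system A relative (SNAT2) that cells induce when starved of amino acids, at 9.10, 9.15 and 9.03. Their full-day changes were 0.05 ± 0.07 and -0.07 ± 0.06. A dimmer probe set of Slc38a1, not shared between transcripts, was called lower over the day (-0.27, adjusted p = 0.00948 in the fit without shared probe sets). It was also called lower in the first interval (-0.37, adjusted p = 0.00549 in limma's fit by probe set), so the 2 probe sets of this gene disagree. A dimmer probe set of Slc38a2 was called lower in the second interval (-0.19, adjusted p = 0.0399 in limma's fit by probe set).

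Slc38a4, the third system A gene and an imprinted one expressed from the paternal allele, fell in both intervals. Its level was 7.07 and 6.98 at GD8.5, 6.63, 6.81, 6.73 and 6.88 at GD9.0, and 6.44, 6.48, 6.49 and 6.55 at GD9.5. No stages overlapped, and the gene was 1.45-fold lower at GD9.5 than at GD8.5 (-0.54 ± 0.08, adjusted p = 0.000269). The steps were -0.26 ± 0.08 (adjusted p = 0.0437) and -0.27 ± 0.06 (adjusted p = 0.00741), and the first was lost when any 1 of 9 arrays, all but GD9.0 replicate 4, was left out. Its second probe set fell too (-0.79 over the day). Slc38a1, Slc38a2 and Slc38a4 follow each other on chromosome 15 with 0 protein-coding genes between them, and of these neighbours Slc38a4 alone was called from the brightest probe set.

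Slc38a5 and Slc38a3, grouped here as system N genes, rose over the day in the main fit. Slc38a5, or SNAT5, a glutamine carrier, was at 1.2004 and 1.2134 at GD8.5, under the background, at 1.45, 1.58, 1.60 and 1.58 at GD9.0, and at 1.90, 1.63, 2.25 and 1.77 at GD9.5. It was at least 1.37-fold higher at GD9.5 than at GD8.5 (0.68 ± 0.13, adjusted p = 0.00283), called under every alternative run. The second interval (0.33 ± 0.11, adjusted p = 0.0497) was lost when any 1 of 9 arrays, all but GD9.5 replicate 2, was left out. Slc38a3, or SNAT3, was at 1.95, 2.02 and 2.27 and rose over the day by 0.31 ± 0.10 (adjusted p = 0.0338), lost without either array of GD8.5 or without GD9.5 replicate 1 or 3. Its second-interval rise (0.25 ± 0.08, adjusted p = 0.0436) was lost in 7 of the 10 fits that leave out 1 array (all but those without GD9.0 replicate 4 and GD9.5 replicates 2 and 4). Its other probe set changed by -0.20 over the day, and with the mean of its probe sets the full-day change was 0.06 and not called.

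Slc38a5 and Slc7a3 are on the X chromosome, and the sex mix of the samples is not in the labels. Xist, the X-inactivation transcript, was at 8.87, 8.61 and 9.16 at the 3 stages and rose in the second interval (0.54 ± 0.05, adjusted p = 2.75e-05). Its part in the changes of the 2 transporter genes was not tested.

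Of the remaining Slc38 genes, Slc38a10, a little studied member, was at 5.89 and 5.75 at GD8.5, 5.37, 5.28, 5.56 and 5.41 at GD9.0, and 6.02, 5.91, 6.01 and 6.06 at GD9.5. The arrays of GD9.0 lay below all others. It fell in the first interval (-0.41 ± 0.08, adjusted p = 0.00632, lost without GD8.5 replicate 3) and at GD9.5 was 1.51-fold above GD9.0 (0.59 ± 0.07, adjusted p = 8.14e-05), with a full-day change of 0.18 ± 0.08 that did not pass (adjusted p = 0.14). The intervals differed by 1.01 ± 0.13 (adjusted p = 0.000505). Of its 7 probe sets 3 were called lower in the first interval and 4 higher in the second, and a dim one was called lower over the day (-0.47).

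Measures of RNA quality also moved between stages. The 18S ribosomal RNA control averaged 9.82, 8.81 and 10.3 at the 3 stages, and actin probe sets at the 3' end exceeded those at the 5' end by 0.71, 0.56 and 0.93. On the 10 log2 arrays they were lowest at GD9.0 and highest at GD9.5, as were Slc38a10 and Slc7a5, of which Slc38a10 alone passed in both intervals. Their part in the changes of the 2 genes was not tested.

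Slc38a9, the lysosomal arginine sensor of mTORC1, was at 3.87, 3.93 and 3.86, and 0 of its 7 probe sets was called in any stage comparison. In limma's fit by gene its unadjusted p was 0.36 or more in each. Slc38a7, a lysosomal glutamine and asparagine exporter, did not pass either (2.17, 2.33 and 2.16). Slc38a6 fell in the second interval (-0.34 ± 0.10, adjusted p = 0.0347, lost without any 1 of GD9.0 replicates 1, 2 and 3 or GD9.5 replicates 2 and 3) and over the day (-0.46 ± 0.13, adjusted p = 0.0193, lost without GD8.5 replicate 3).

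The gene with the largest change of the set was Slc36a4, or PAT4, whose human form carries proline and tryptophan. Its level was 2.73 and 2.24 at GD8.5, 2.70, 3.03, 3.28 and 3.26 at GD9.0, and 4.54, 4.51, 4.71 and 4.54 at GD9.5. All 4 arrays of GD9.5 lay over 1 log2 unit above every earlier array, while GD8.5 and GD9.0 overlapped. At GD9.5 it was 2.84-fold higher than at GD9.0 (1.51 ± 0.14, adjusted p = 1.5e-05) and 4.26-fold higher than at GD8.5 (2.09 ± 0.17, adjusted p = 2.88e-06). The first step (0.58 ± 0.17, adjusted p = 0.0408) was lost in 7 of the 10 fits that leave out 1 array (GD8.5 replicate 4, GD9.0 replicates 2, 3 and 4 and GD9.5 replicates 1, 2 and 4), and the larger second step (difference 0.93 ± 0.25, adjusted p = 0.0384) also in 7 (GD8.5 replicate 3, GD9.0 replicates 1 and 2 and each array of GD9.5) and with a replicate block.

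The other 3 members of the family did not pass in any comparison. Slc36a1, a proton-coupled carrier of lysosomes and gut, was at 2.70, 2.77 and 2.74, Slc36a2 at 1.38, 1.52 and 1.53, and Slc36a3 at 2.28, 2.08 and 2.10. Their adjusted p ran from 0.445 upwards. These 3 genes are next to each other on chromosome 11, whereas Slc36a4 is on chromosome 9.

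In the Slc43 family, Slc43a1, or LAT3, a facilitator of leucine and other neutral amino acids, fell in the second interval. It was at 4.69, 4.67 and 4.22 and changed by -0.02 ± 0.10, by -0.46 ± 0.08 (adjusted p = 0.00161) and over the day by -0.48 ± 0.10 (adjusted p = 0.00358). Both calls were lost with all 12 arrays (adjusted p = 0.0599 and 0.119). Slc43a3, whose human form carries purine bases and not amino acids, rose slightly over the day on the 10 log2 arrays (0.30 ± 0.10, adjusted p = 0.0351). The call was lost without either GD8.5 array or GD9.5 replicate 1 or 4. With all 12 arrays normalized together, the full-day change was 0.03 and not called, and GD8.5 replicate 2 (4.54) lay above every other array. The second-interval rise of Slc43a3 (0.23 ± 0.08, adjusted p = 0.0494) was lost in 8 of the 10 fits that leave out 1 array (all but those without GD9.0 replicate 1 and GD9.5 replicate 2). Slc43a2, or LAT4, was at 2.16, 2.11 and 2.12 and did not pass.

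**Figure D4:**
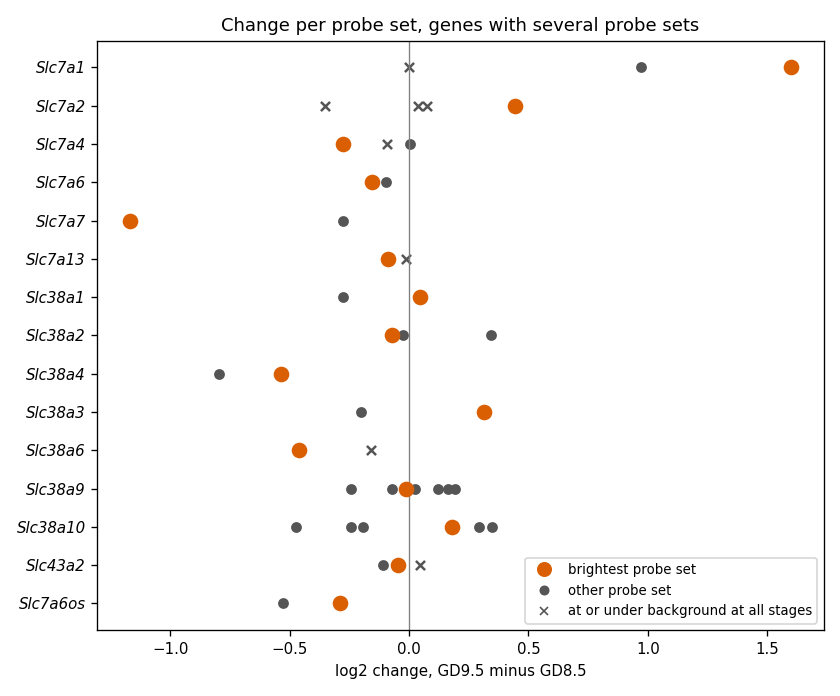
Log2 change from GD8.5 to GD9.5 of each probe set, for the 15 genes above background with more than 1 probe set. Orange points are the brightest probe set, used for the gene, dark grey points the others, and crosses probe sets at or under background at every stage. Both Slc7a1 sets with signal lie well right of 0 and both Slc38a4 sets left of it. Slc7a2, Slc7a4, Slc38a1, Slc38a2, Slc38a3, Slc38a9, Slc38a10 and Slc43a2 have sets on either side, and Slc7a2 was called in both directions.

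The promoters of the 2 genes that rose most over the day, Slc36a4 and Slc7a1, are shown beside those of Slc7a7 and Slc7a9, the light chains that fell most, since the pairs moved in opposite directions. Each is RefSeq sequence of GRCm38.p6 on the gene's strand, 5′ to 3′, from 250 bases before to 50 bases after the most upstream annotated start. Capitals mark TGATGNAA, the letters of the amino acid response element that the stress factor ATF4 binds, searched on both strands together with the E-box letters CACGTG. The 4 windows are chr9:15709488-15709787 (plus strand), chr5:148399855-148400154 (minus), chr14:54417895-54418194 (minus) and chr7:35448842-35449141 (plus).
Slc36a4: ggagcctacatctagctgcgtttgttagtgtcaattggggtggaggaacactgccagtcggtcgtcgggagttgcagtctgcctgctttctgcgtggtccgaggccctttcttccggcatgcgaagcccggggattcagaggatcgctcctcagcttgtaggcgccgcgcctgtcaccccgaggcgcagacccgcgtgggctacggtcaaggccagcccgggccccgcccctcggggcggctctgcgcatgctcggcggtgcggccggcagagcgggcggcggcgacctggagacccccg
Slc7a1: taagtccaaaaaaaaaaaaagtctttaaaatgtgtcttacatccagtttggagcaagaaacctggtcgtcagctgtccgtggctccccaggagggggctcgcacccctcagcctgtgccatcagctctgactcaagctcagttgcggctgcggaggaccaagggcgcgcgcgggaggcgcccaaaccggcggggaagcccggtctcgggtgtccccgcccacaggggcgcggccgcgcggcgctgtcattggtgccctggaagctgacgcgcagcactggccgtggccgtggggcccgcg
Slc7a7: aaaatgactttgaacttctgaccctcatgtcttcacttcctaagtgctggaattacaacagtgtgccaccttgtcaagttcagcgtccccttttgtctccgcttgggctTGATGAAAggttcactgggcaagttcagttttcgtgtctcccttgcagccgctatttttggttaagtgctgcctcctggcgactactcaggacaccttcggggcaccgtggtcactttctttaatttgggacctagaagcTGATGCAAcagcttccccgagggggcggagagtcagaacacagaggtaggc
Slc7a9: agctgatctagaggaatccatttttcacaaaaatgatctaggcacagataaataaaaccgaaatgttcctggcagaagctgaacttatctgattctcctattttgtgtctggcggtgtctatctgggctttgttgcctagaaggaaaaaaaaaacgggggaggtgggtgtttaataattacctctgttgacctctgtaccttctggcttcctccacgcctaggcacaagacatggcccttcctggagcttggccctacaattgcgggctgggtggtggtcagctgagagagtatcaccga

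The promoters shown for Slc36a4 and Slc7a1 were rich in CpG, with 32 CpG and 69.0% G and C in Slc36a4 and 27 and 65.0% in Slc7a1. The other 2 were poorer, with 9 and 51.0% in Slc7a7 and 6 and 47.0% in Slc7a9. Among the other members called over the day that have a promoter entry, CpG content varied between those that fell. Slc43a1, Slc38a6 and Slc7a6os fell and had 26, 26 and 30 CpG, while Slc38a4 fell with 5. Slc38a5, which rose, had 10. Other members called over the day (Slc7a2, Slc7a3, Slc7a5, Slc38a3 and Slc43a3) have no entry. The median over 27025 promoters was 7 CpG and 52.7%, and over the 25 members with an entry it was 16 CpG and 58.0%. The response element letters stood in 2 of these 25, Slc7a7, with matches starting 141 bases and 1 base before the start, and Slc7a11, and in 4.06% of all promoters. The E-box letters stood in 5 of the 25 (Slc36a1, Slc38a5, Slc38a7, Slc43a1 and Slc7a14) and in 7.24% of all promoters, and no match overlapped another. A match describes letters and not a bound site.

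Other genes of amino acid supply were read from lists. Of 19 other plasma membrane amino acid transporters, 0 passed in the first interval by limma, when 13.5% of all genes did. Under some alternatives 1 fell. Only 14 of the 19 exceeded the background in at least 1 stage mean, so no change can be read for the rest. In the second interval, when 14.1% of all genes rose, 2 of the 19 rose. They were Slc1a2 and Slc1a3, the glial glutamate transporters GLT-1 and GLAST, at 1.14 ± 0.10 (adjusted p = 1.68e-05) and 0.65 ± 0.14 (adjusted p = 0.00652). In the first interval 2 of the 19 had an unadjusted p under 0.05 by limma, as had 4586 of all 18193 genes. Of 18 cytosolic tRNA synthetases, the enzymes that load amino acids onto tRNA, 11 fell and 0 rose in the second interval, when 10.3% of all genes fell, with a median change of -0.19 beside -0.008 over all genes. The mean level of the list was 7.30, 7.39 and 7.17 at the 3 stages, and over the same interval the 18S control averaged 10.3 at GD9.5, against 8.81 at GD9.0, and the actin difference 0.93, against 0.56. The part of these measures in the falls was not tested. Gars, the glycine enzyme, fell most, to 8.37 at GD9.5, against 8.89 at GD9.0 (-0.52 ± 0.05, adjusted p = 2.6e-05), and Cars, the cysteine enzyme, followed (-0.44 ± 0.06, adjusted p = 0.00047).

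Genes of the ATF4 and amino acid response moved both ways. Over the day 10 of 26 fell and 4 rose, when 13.1% of all genes fell and 15.5% rose, with a median change of -0.13. Vldlr, a lipoprotein and reelin receptor (-1.20 ± 0.16, adjusted p = 0.000164), and Stc2, a secreted stress glycoprotein (-0.92 ± 0.14, adjusted p = 0.000535), fell most, and Gpt2, the mitochondrial alanine transaminase (0.57 ± 0.09), and Phgdh, the first enzyme of serine synthesis (0.56 ± 0.06), rose most. Asns, the asparagine synthetase and a standard ATF4 target, rose in the first interval (0.31 ± 0.06, adjusted p = 0.00688), when 3 genes of the list rose, or 1 without GD8.5 replicate 3 and 0 without GD8.5 replicate 4. In that interval, when 6.78% of all genes rose and 6.74% fell, 6 of the list fell, or 3 without GD8.5 replicate 3, led by Vldlr (-1.10 ± 0.16) and Ddit4, an inhibitor of mTORC1 signalling (-0.86 ± 0.085). Of 36 genes of amino acid sensing by mTORC1, 4 rose and 4 fell over the day, beside the same 15.5% and 13.1% of all genes. Of the GATOR1 complex, which restrains mTORC1, the subunit Depdc5 rose (0.40 ± 0.10, adjusted p = 0.0123) and the subunit Nprl3 fell (-0.53 ± 0.09). Of the sestrins, Sesn1 rose (0.37 ± 0.10) and Sesn2 fell (-0.30 ± 0.09). Leaving out GD8.5 replicate 3 left 1 that rose and 1 that fell, leaving out GD8.5 replicate 4 left 1 that fell, and leaving out GD9.5 replicate 1, 2 or 4 left 2 that fell. Of 8 glutathione synthesis genes 3 fell in the second interval, beside 10.3% of all genes, including Gss, the glutathione synthetase (-0.35 ± 0.10), and 1 without GD9.5 replicate 2.

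**Figure D5:**
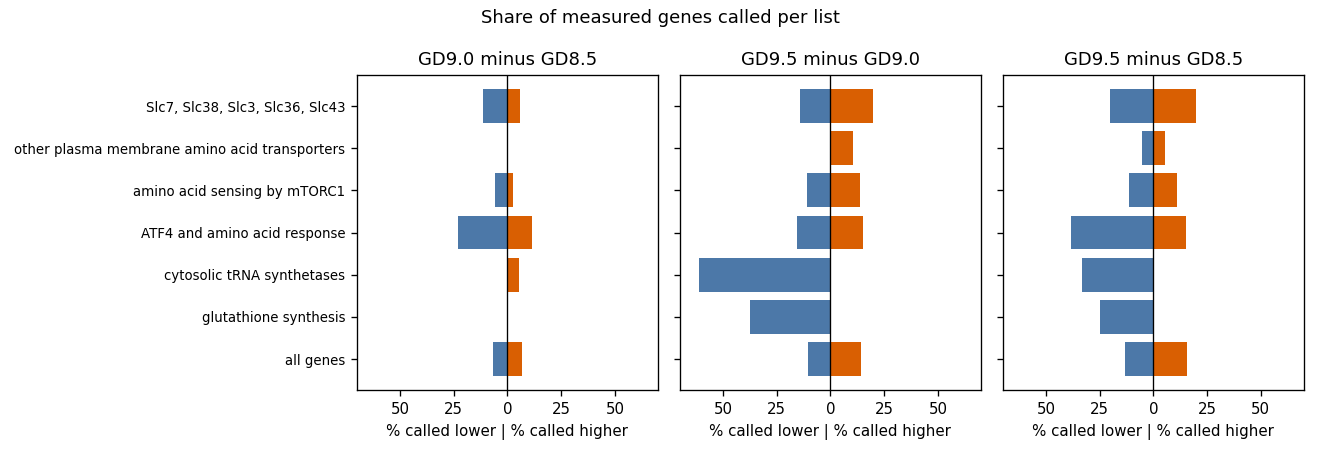
Percent of measured genes called higher (orange, right) and lower (blue, left) in each comparison, for the 35 genes of the 5 solute carrier families, for 5 other lists and for all 18193 genes. The tRNA synthetases stand out on the lower side between GD9.0 and GD9.5, with 11 of 18, while the solute carrier families have 7 higher and 5 lower of 35.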

How the data were processed

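Affymetrix mouse arrays measured mRNA in micro-dissected neural tubes. Per the submitters' processing notes, Expression Console 1.2.1 was used, and RMA and GCRMA are listed with no role given. The deposited table held log2 values for 10 arrays, normalized by the authors so that sorted values differed by at most 0.272 between arrays, and linear intensity values, as deposited, for GD8.5 replicates 1 and 2. Those 2 arrays entered only an alternative, after log2 and quantile normalization of all 12 arrays.

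Of 45101 probe sets, 64 were controls, 34945 named 1 gene, 932 named several and 9160 named none in the platform annotation. Each of 18193 genes was represented by its brightest single-gene probe set. limma 3.58.1 in R 4.3.3 fitted a mean per stage with no block, with 7 residual and 3.86 prior degrees of freedom, with Benjamini-Hochberg adjustment across all genes (called at an adjusted p under 0.05). Errors of log2 changes are standard errors of that fit. The fit was tested on simulated data with 200 changed genes of 18193. It recovered 0 of the 1.2-fold changes in each comparison. Of the 1.5-fold changes it recovered 80.5% in the first interval, 97.5% in the second and 88% over the day. The deposited data held more called genes than that, so these rates do not carry over directly. Array number limits the precision. Promoters are 300 bases of RefSeq sequence on GRCm38.p6. Full array values are given for members called with a change of at least 0.5 or called for the difference between intervals, and genes of other lists are named from the 2 largest called rises and falls of a comparison. The members and lists were chosen with earlier results of these data known. Equal replicate numbers are not tied by the labels to a litter or day. Alternatives were other array scaling, all 12 arrays, a filter on dim genes, other probe set rules, other variance models, a replicate block and leaving out each array.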

Additional observations from a re-analysis of the deposited data

Results flagged for a closer look

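The change of 5 genes differed between the half-day intervals by the limma test of the difference (second interval minus first, log2), at 0.93 for Slc36a4, 1.01 for Slc38a10, 0.84 for Slc7a5, 0.83 for Slc7a7 and -0.68 for Slc7a1.

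Among 58 sets of 4 arrays, 5 had 1 array far from the other 3, where chance alone gives about 1 in 20. Slc36a4 on GD9.5 replicate 3 was at 4.71, with the others from 4.51 to 4.54. Slc7a7 on GD9.5 replicate 1 was at 1.50, with the others from 1.71 to 1.73. Slc36a3 on GD9.0 replicate 3 was at 1.91, Slc38a5 on GD9.0 replicate 1 at 1.45 and Slc7a8 on GD9.0 replicate 4 at 0.93, with the others from 2.12, 1.58 and 1.35 upwards.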

How the results depend on the processing

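Of 37 called changes of single genes, 16 stayed called with the same direction under every alternative that gave a value. They belong to Slc36a4, Slc38a10, Slc38a4, Slc38a5, Slc7a1, Slc7a3, Slc7a5, Slc7a7 and Slc7a9. Leaving out 1 array gave 4 to 7 called genes in the first interval, 7 to 10 in the second, 9 to 15 over the day and 4 to 6 for the difference between intervals, and an array alone in its stage was assumed to vary like the others. With all 12 arrays the second interval had 6 and the difference between intervals 2, and an intensity trend with robust spread gave 8 for that difference. Over all genes, 12 arrays gave 2294 calls in the second interval (4429 with 10) and 1086 for the difference (2118 with 10), and leaving out GD8.5 replicate 3 or 4 gave 1526 or 1387 in the first interval (2460 with both) and 1373 or 1403 for the difference. The causes were not tested. The change of Slc38a1 over the day was reversed without shared probe sets (-0.27), where another probe set stood for the gene. Slc7a7 has only shared probe sets and no value there. With the replicate block the counts were 5, 10, 11 and 5. The deviations of equally numbered arrays of GD9.0 and GD9.5 correlated at -0.0221, 0.101, 0.0362 and 0.0227. Unequally numbered arrays ran from -0.137 to 0.149. So few values cannot tell whether equal numbers share a litter or day. Over the alternatives, 7 to 13 tRNA synthetase genes fell in the second interval and 8 to 11 ATF4 response genes over the day, ranges added after the data were seen. For genes near the background, a change is limited by the signal.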

Other observations

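The 2 GD8.5 arrays deposited as linear intensities were in no comparison of the 10 log2 arrays. On them Slc36a4 was at 180.4 and 161.1, Slc7a1 at 561.0 and 383.4, Slc7a3 at 466.9 and 496.1, Slc7a9 at 212.1 and 254.9 and Slc7a7 at 249.1 and 105.6. After log2 and quantile normalization of all 12 arrays, Slc7a7 was at 4.07 and 2.66 on these arrays, against 3.82 and 3.46 on the other arrays of GD8.5, so replicate 2 lay within the range of GD9.0 (2.52 to 2.70). Slc7a9 was at 3.79 and 4.11, above the 3.26 and 2.83 of the other GD8.5 arrays. Slc38a10 was at 6.99 and 6.79, above all 10 log2 arrays. Slc7a5 was at 4.87 and 5.09, below the 5.48 and 5.33 of the other GD8.5 arrays and within or under the range of GD9.0 (4.95 to 5.26).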
